A study of Homo sapiens with 10 samples.

Results

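The small nucleolar RNA (snoRNA) host genes GAS5, SNHG1, SNHG3, SNHG5, SNHG6, SNHG7, SNHG8 and SNHG12 were followed in K562 cells, an established human chronic myeloid leukemia line, during inhibition of the CREBBP/EP300 bromodomains. The members are the rows of the deposited expression table that carry these symbols. All 8 were found among the 23284 genes of the table, and all 8 were among the 12788 genes that passed a filter on low values (0.5 FPKM or more when averaged across the 10 samples). For 48 h the cells received the vehicle DMSO or 1 of the inhibitors, CBP30 or I-CBP112, each at 2 and at 5 µM. CBP30 and I-CBP112 both bind the bromodomains of the histone acetyltransferases CREBBP and EP300. There were 2 biological replicates for each of the 5 conditions, 10 samples in all, and polyadenylated RNA was sequenced. All groups were the same unmodified line, and the vehicle was the only control.

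Most human snoRNAs are made from introns. The host gene is transcribed and spliced, the snoRNA is trimmed out of the released intron, and the joined exons form a separate RNA. C/D box snoRNAs guide ribose methylation and H/ACA box snoRNAs guide pseudouridylation, mainly of ribosomal RNA. The exons of the noncoding hosts hold only short open reading frames, and several of these RNAs are removed by nonsense-mediated decay when they are translated. Many hosts belong to the genes whose transcripts begin with a terminal oligopyrimidine (TOP) tract, as the mRNAs of ribosomal proteins do. Values given for a host below are those of its spliced, polyadenylated RNA, not of its snoRNAs.

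By the GENCODE annotation of the GRCh37 genome, the build of the deposited values, all 8 are long noncoding RNA genes on 6 chromosomes. GAS5, first described as a gene whose RNA accumulates in growth-arrested cells, lies at chr1:173827697-173838020 on the minus strand. SNHG1 lies at chr11:62619450-62623425 (minus), SNHG3 at chr1:28832492-28837404 (plus) and SNHG5 at chr6:86360209-86388650 (minus). SNHG6 lies at chr8:67832796-67838633 (minus), SNHG7 at chr9:139615818-139622636 (minus), SNHG8 at chr4:119199858-119206471 (plus) and SNHG12 at chr1:28905050-28909644 (minus).

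RefSeq places 32 snoRNAs inside them, 22 of the C/D class, 9 of the H/ACA class and 1 without a name. GAS5 holds 11, of which 10 are C/D, and SNHG1 holds 9, of which 8 are C/D. SNHG5 and SNHG6 hold only C/D snoRNAs (SNORD50A and SNORD50B, and SNORD87), whereas SNHG3, SNHG7 and SNHG8 hold only H/ACA snoRNAs. SNHG12 holds both classes, with SNORD99, SNORA61, SNORA44 and SNORA16A.

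The starts of the hosts are shown because many hosts are known for a TOP tract. Members with a run of pyrimidines near the start did not all move together. The letters of a TATA box were looked up as well. RefSeq promoter sequences (GRCh38.p14) matched 7 of the 8 members, and SNHG6 was not matched. Each line gives the 30 bases before the annotated start and the 30 bases from it, 5′ to 3′. Capitals mark the longest run of C followed by at least 4 pyrimidines that lies wholly within 20 bases of the start on either side. Shorter runs, and runs that reach beyond those 20 bases, are left in lower case.
SNHG12 (chr1:28581844-28581903, minus): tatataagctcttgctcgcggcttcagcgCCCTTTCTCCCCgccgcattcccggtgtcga
SNHG7 (chr9:136728155-136728214, minus): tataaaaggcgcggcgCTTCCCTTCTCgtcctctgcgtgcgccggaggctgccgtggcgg
SNHG5 (chr6:85678704-85678763, minus): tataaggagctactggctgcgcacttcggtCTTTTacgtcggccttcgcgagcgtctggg
SNHG8 (chr4:118278732-118278791, plus): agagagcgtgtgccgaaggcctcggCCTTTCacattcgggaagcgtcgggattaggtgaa
SNHG3 (chr1:28505913-28505972, plus): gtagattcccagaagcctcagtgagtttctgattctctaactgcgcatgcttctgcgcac
Such a run was present in 5 of the 7 members (SNHG1, SNHG5, SNHG7, SNHG8 and SNHG12), against 47.6% of 27305 RefSeq promoters. Counted from the start, it begins at base 1 in SNHG5, −1 in SNHG12 and −5 in SNHG8. In SNHG7 and SNHG1 it begins at −14 and −19 and ends before the start. A run is therefore not by itself a TOP tract. The letters TATAA stood within the 40 bases before the start in 4 of the 7 (SNHG5, SNHG7, SNHG8 and SNHG12), against 4.67% of promoters, on the strand of the gene. In SNHG8 they lie just upstream of the printed window. The E-box CACGTG, the motif bound by MYC and related factors, was found in 1 of the 7 (SNHG7) in the window from 250 bases before to 50 bases after the start, against 7.43% of promoters. These matches describe the letters at 1 RefSeq start per gene, which may differ from the GENCODE start used for its neighbours below. A missing run, as in GAS5 and SNHG3, holds for that start alone. Which start is used in K562 cells was not measured.

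The values are FPKM (fragment counts that the authors scaled to transcript length and to the size of each library) and carry no read counts. The depth of each library is therefore unknown, and all errors come from the differences between replicates. Taking the values of 454 long-transcript genes seen in few libraries as single reads, relative depth ranged from 0.913 to 1.08 times the mean. Replicate 1 of 2 µM CBP30 stood apart from the rest. With tested genes ranked by their longest annotated transcript and put into 5 equal groups, the group with the shortest transcripts lay 0.26 above DMSO in it on the log2 scale (median) and the group with the longest 0.28 below, and EEF1A1, a translation elongation factor gene at 5338 to 6661 FPKM elsewhere, is listed at 0. In the samples treated with 5 µM CBP30 the trend ran the other way and was smaller, with the shortest transcripts 0.12 and 0.11 below DMSO. The K562 markers were present throughout, with 8 of 8 erythroid genes at no less than 8.40 FPKM in any sample. Of 9 markers of other cell types, EPCAM was at 31.8 to 59.7 FPKM and the other 8 together at 2.70 to 6.60, with MS4A1 and KRT5 at 0 in all samples.

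In vehicle-treated cells the host RNAs covered a wide range of levels, and most were abundant. SNHG5 was highest at 1225 FPKM (mean of 2), followed by GAS5 at 728 and SNHG8 at 575. SNHG1 and SNHG6 came next at 345.2 and 344.8, and their DMSO samples overlapped (339 to 351 and 335 to 355), so that their order could not be told. SNHG3 was at 127 FPKM, SNHG7 at 36.1 and SNHG12 at 26.4. No other neighbours in this order overlapped in their DMSO samples. Summed, the 8 hosts made up 0.544% and 0.567% of all FPKM in the DMSO samples.

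**Figure D1:**
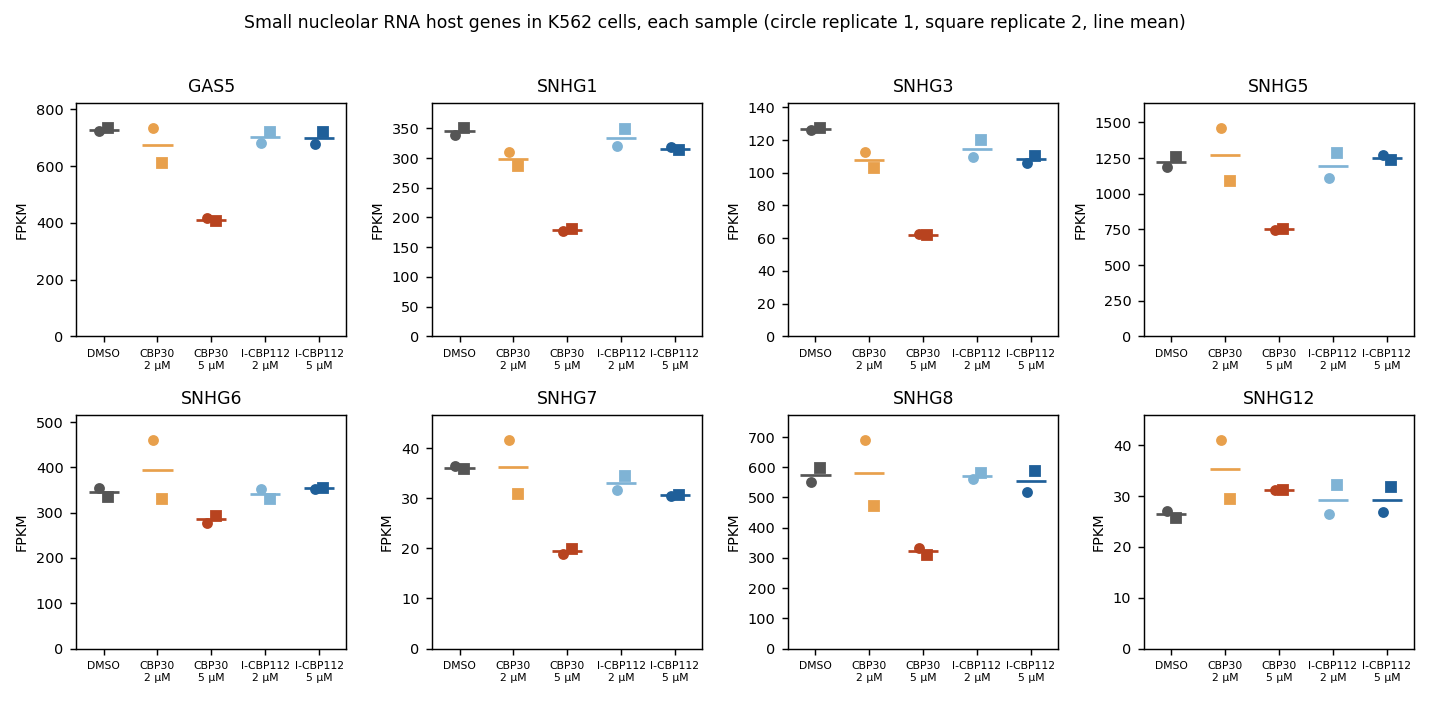
Level of each host RNA in FPKM (vertical axis, from 0) in DMSO and each treatment (horizontal axis). Circles are replicate 1, squares replicate 2 and lines the mean. At 5 µM CBP30 both samples lie below both DMSO samples in 7 panels and above them in the SNHG12 panel.

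Treatment with 5 µM CBP30 lowered most of the host RNAs. GAS5, SNHG1, SNHG3, SNHG5, SNHG7 and SNHG8 fell to between 48.9% and 61.3% of DMSO, SNHG6 stood at 82.6% without passing the test, and SNHG12 stood at 118%, also without passing it. Thus 6 of 8 members were called lower and 0 higher, where 25.4% of all tested genes were called lower and 21.2% higher (limma on log2(FPKM + 1), Benjamini-Hochberg adjusted p under 0.05). The median change of the members was −0.83 on the log2 scale, beside −0.01 over all tested genes. Both treated samples lay below both DMSO samples for 7 members, as they did for 42.6% of all tested genes. Together the hosts were at 2066 and 2054 FPKM, which is 0.377% and 0.372% of the summed values, beside 3347 and 3468 FPKM in DMSO.

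Among the C/D hosts, GAS5 was at 723 and 734 FPKM in DMSO and at 417 and 405 FPKM with 5 µM CBP30. The groups did not overlap, and GAS5 changed by −0.82 ± 0.09 (log2 fold change ± SE, adjusted p = 0.00045). SNHG1, whose introns carry snoRNAs including SNORD22 and SNORD25 to SNORD31, was at 339 and 351 FPKM in DMSO and 178 and 181.03 FPKM after treatment. The replicates differed little from each other, and the change was −0.94 ± 0.06 (adjusted p = 5.2e-05). SNHG5, the most abundant of the hosts, was at 1189 and 1260 FPKM in DMSO and at 746 and 755 FPKM after treatment. It remained the highest of the 8 and changed by −0.70 ± 0.14 (adjusted p = 0.0058). SNHG6 was at 355 and 335 FPKM in DMSO and 278 and 292 FPKM with 5 µM CBP30. Although its groups did not overlap, its change of −0.27 ± 0.14 did not pass the test (adjusted p = 0.15), with an interval from −0.60 to 0.06.

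The hosts that hold only H/ACA snoRNAs fell as well. SNHG3, the host of the U17 snoRNAs SNORA73A and SNORA73B, which take part in pre-rRNA cleavage, was at 126 and 128 FPKM in DMSO and at 62.2 and 61.95 FPKM with 5 µM CBP30. This was the lowest proportion of DMSO among the members, and the change was −1.02 ± 0.06 (adjusted p = 3.5e-05). SNHG7 was at 36.4 and 35.8 FPKM in DMSO and 18.9 and 19.9 FPKM after treatment, a change of −0.86 ± 0.12 (adjusted p = 0.0013). SNHG8 was at 552 and 598 FPKM in DMSO and 334 and 308 FPKM after treatment, a change of −0.84 ± 0.17 (adjusted p = 0.0057). Neither gene overlapped with DMSO in any sample.

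SNHG12, which holds both classes, was the exception in direction. It was at 27.1 and 25.8 FPKM in DMSO and at 31.1 and 31.3 FPKM with 5 µM CBP30. Both treated samples were above both DMSO samples, as for 39.5% of all tested genes, but the change of 0.23 ± 0.16 did not pass the test (adjusted p = 0.27). Its interval, −0.15 to 0.61, lay above the intervals of the 6 members that fell, of which the highest upper bound was −0.37. The difference between SNHG12 and the other members was not tested.

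**Figure D2:**
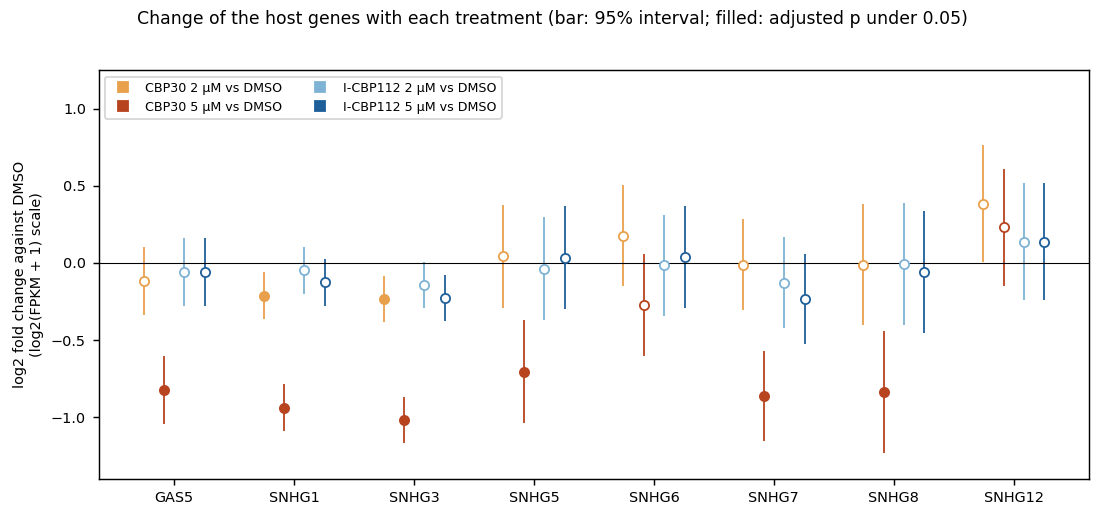
Log2 fold change of each host RNA against DMSO (vertical axis, log2(FPKM + 1) scale) for the 4 treatments, with bars for the 95% interval and filled points for adjusted p under 0.05. The 6 filled points at 5 µM CBP30 lie between −0.70 and −1.02, and all 16 points for I-CBP112 are open.

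The same 6 members were called lower with 5 µM CBP30 under all 22 alternative settings, which included leaving out each sample in turn. SNHG6 was called lower under 3 of them, without either sample of 2 µM CBP30 (adjusted p = 0.0028 in both, with 33.4% and 33.5% of genes called lower) or with only the groups compared in the fit (adjusted p = 0.010, 32.6% of genes), and its change was −0.08 after quantile normalization. SNHG12 was called higher under 2. With only the groups compared its adjusted p was 0.0095, and 28.4% of genes were called higher. With the trend of each sample with transcript length removed its change was 0.36 (adjusted p = 0.037, 26.7% of genes). After removal of that trend the median of the members was −0.77 with the length of the longest annotated transcript and −0.78 with the median length. The annotated longest transcripts of the members run from 1821 bases (SNHG6) to 6166 bases (SNHG8) and may be longer than those counted, so these corrected values depend on the annotation.

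With 2 µM CBP30 the host RNAs were spread around the DMSO level, and only the SNHG1 and SNHG3 RNAs were called. Thus 2 members were called lower and 0 higher, where 16.3% of all tested genes were called lower and 15.9% higher, and the median of the members was −0.01. SNHG1 was at 310 and 287 FPKM, 86.4% of DMSO, a change of −0.21 ± 0.06 (adjusted p = 0.043). SNHG3 was at 113 and 103 FPKM, 84.8% of DMSO, a change of −0.24 ± 0.06 (adjusted p = 0.029). Both samples of each gene lay below both DMSO samples, as for 30.5% of all tested genes.

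For the other members the replicates at 2 µM CBP30 disagreed, with replicate 1 above replicate 2 in every member. SNHG5 was at 1464 FPKM in replicate 1 and 1086 in replicate 2, on either side of the DMSO samples. SNHG8 was at 690.5 and 471 FPKM, SNHG6 at 461 and 330, SNHG7 at 41.7 and 30.8 and GAS5 at 736 and 611, and none of these was called. SNHG12 was at 41.1 and 29.5 FPKM, both above DMSO, as for 31.4% of all tested genes, with a change of 0.38 ± 0.16 (adjusted p = 0.11). The calls at this dose depended on single libraries. Without replicate 1 of 2 µM CBP30, the sample with the trend along transcript length, 4 members were called lower (GAS5, SNHG1, SNHG3 and SNHG7), with 19.9% of all tested genes called lower. Without replicate 2 of the same group, 1 member was called lower (SNHG3) and 4 higher (SNHG5, SNHG6, SNHG7 and SNHG12), with 28.1% of genes called lower and 28.6% higher. Leaving out a sample of DMSO, 5 µM CBP30 or 5 µM I-CBP112 lost the calls of SNHG1 and SNHG3, and fewer of all tested genes were called lower.

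The direct comparison of both CBP30 doses addressed whether the host RNAs were lower at 5 than at 2 µM. In this comparison 7 members were called lower and 0 higher, where 21.3% of all tested genes were called lower and 17.6% higher. The steps ranged from −0.45 for SNHG6 (adjusted p = 0.041) to −0.85 for SNHG7 (adjusted p = 0.0047), and GAS5 (−0.71), SNHG1 (−0.73), SNHG3 (−0.78), SNHG5 (−0.75) and SNHG8 (−0.83) lay in between. SNHG12 changed by −0.15 ± 0.16 (adjusted p = 0.46). The median step of the members was −0.74. It was −0.56 without replicate 1 of 2 µM CBP30, the sample with the trend along transcript length, and −0.84 without replicate 2. After quantile normalization it was −0.46. The call of SNHG6 held in 9 of 22 alternative settings, over which its step ran from −0.69 to −0.16 and its adjusted p reached 0.21. The 7 members called were those whose samples did not overlap between the doses, as for 37.8% of genes in the lower direction. With only the groups compared in the fit 0 members passed the test, where 0.0313% of all tested genes were called lower. Without either sample of 5 µM CBP30 the calls of SNHG5, SNHG6 and SNHG8 were lost, and fewer of all tested genes were called lower. The median step of the members was −0.73 without replicate 1 of 5 µM CBP30 and −0.75 without replicate 2.

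I-CBP112 left the host RNAs near the DMSO level at both doses. At 2 µM 0 members were called, where 0.735% of all tested genes were called lower and 0.868% higher, and 0 members had an unadjusted p under 0.05. At 5 µM 0 members were called, where 3.28% of genes were called lower and 3.84% higher, and 1 member had an unadjusted p under 0.05. The member means lay between 90.4% and 111% of DMSO at 2 µM and between 84.6% and 111% at 5 µM. SNHG3 was at 110 and 120 FPKM with 2 µM and at 106 and 110 FPKM with 5 µM. All 4 of these samples lay below both DMSO samples, and the change at 5 µM was −0.23 ± 0.06 (unadjusted p = 0.0083, adjusted p = 0.081). SNHG7 was at 30.4 and 30.7 FPKM with 5 µM, also below DMSO, with a change of −0.23 ± 0.12 (adjusted p = 0.33). At 5 µM both samples lay below both DMSO samples for 4 members and above them for 0, where 33.7% of genes lay below and 30.5% above. The same held at 2 µM for 3 members below (GAS5, SNHG3 and SNHG7) and 0 above, where 28.3% of genes lay below and 25% above. Without either sample of 2 µM CBP30, 2 members were called lower at 5 µM I-CBP112 (SNHG3 and SNHG7), with 12.4% of all tested genes called lower in either setting. GAS5 with 5 µM I-CBP112 was at 677 and 722 FPKM, 96.1% of DMSO, and SNHG5 was at 1271 and 1235 FPKM, 102% of DMSO. The interval of the GAS5 change ran from −0.28 to 0.16 and that of SNHG5 from −0.30 to 0.37. Between the doses of I-CBP112 0 members were called, with 0 under an unadjusted p of 0.05, where 0.00782% of genes were called lower and 0.0547% higher. Samples of both doses did not overlap for 2 members in the lower and 1 in the higher direction (23.2% and 23.1% of genes). All 4 comparisons with vehicle share the DMSO samples.

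**Figure D3:**
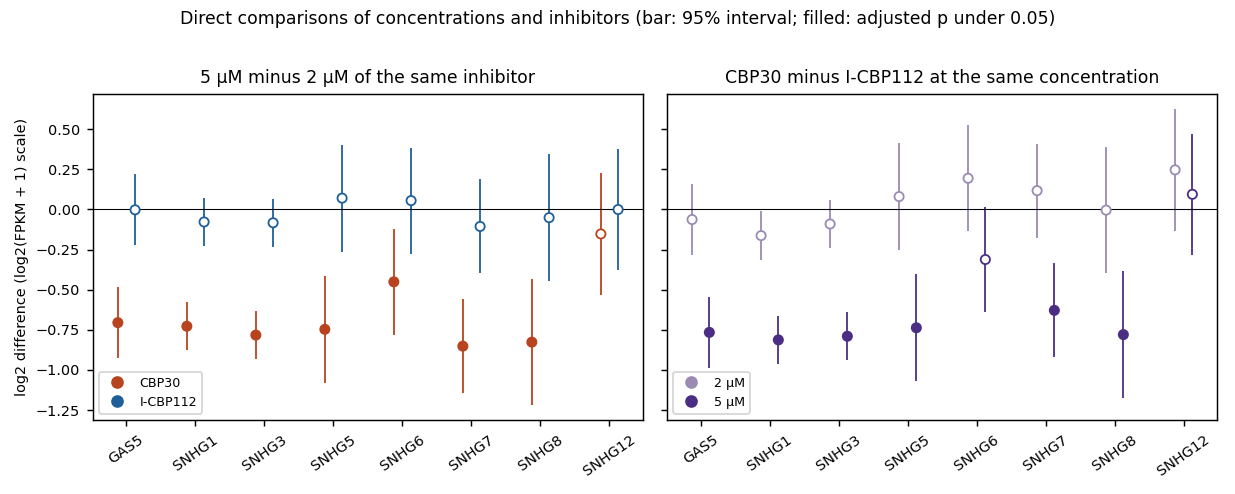
Log2 difference of each host RNA (vertical axis, log2(FPKM + 1) scale) between 5 and 2 µM of the same inhibitor (left) and between CBP30 and I-CBP112 at the same concentration (right), with 95% intervals and filled points for adjusted p under 0.05. CBP30 shows 7 filled points on the left and 6 at 5 µM on the right, and no point for the I-CBP112 doses or for 2 µM is filled.

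At matched doses the inhibitors were compared with each other. At 5 µM, 6 members were lower with CBP30 than with I-CBP112 and 0 higher, where 17.9% of all tested genes were called lower and 13.6% higher. The differences ran from −0.63 for SNHG7 (adjusted p = 0.0095) to −0.81 for SNHG1 (adjusted p = 0.00027). SNHG6 differed by −0.31 (interval −0.64 to 0.02, adjusted p = 0.13) and SNHG12 by 0.09 (interval −0.28 to 0.47, adjusted p = 0.69). For 7 members both CBP30 samples lay below both I-CBP112 samples, as for 41.5% of genes. Without replicate 1 of 5 µM CBP30 the calls of SNHG5, SNHG7 and SNHG8 were lost, and fewer of all tested genes were called lower. The median difference of the members was −0.76 in that fit and −0.75 with all samples. At 2 µM 0 members were called, where 8.45% of genes were called lower and 7.13% higher, and 1 member, SNHG1, had an unadjusted p under 0.05 (−0.16, interval −0.31 to −0.01, adjusted p = 0.12), the only member without overlap between the inhibitors (27.2% of genes in the lower direction). At 2 µM, too, replicates of CBP30 decided the count, with 1 member called lower without replicate 1 (10.49% of genes) and 4 called higher without replicate 2 (27.2% of genes).

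The step from 2 to 5 µM was larger with CBP30 than with I-CBP112 for GAS5, SNHG1 and SNHG3. In the test of this interaction 3 members were called lower and 0 higher, where 3.32% of all tested genes were called lower and 1.63% higher. GAS5 differed by −0.70 ± 0.13 (adjusted p = 0.036), SNHG1 by −0.65 ± 0.09 (adjusted p = 0.020) and SNHG3 by −0.70 ± 0.09 (adjusted p = 0.015). The differences of SNHG5 (−0.82, adjusted p = 0.060), SNHG8 (−0.78, adjusted p = 0.084) and SNHG7 (−0.75, adjusted p = 0.056) were of like size with larger errors. The calls were lost in most fits that left out 1 sample, where few of all tested genes were called either. Those fits leave 1 sample in a group. The median difference of the members was −0.70 with all samples. With 1 sample left out it ran from −0.55 (without replicate 1 of 2 µM CBP30) to −0.80 (without replicate 2 of that group). After quantile normalization it was −0.39.

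Over the 10 samples, 7 of the 8 hosts followed the others closely. The Pearson correlation of each standardized profile with the mean of the other 7 members ran from 0.84 for SNHG6 to 0.98 for SNHG5 and SNHG8, and was 0.04 for SNHG12. These points share libraries, and 2 of the 10 come from the group with the lowest values. Replicate 1 of 2 µM CBP30, the sample with the trend along transcript length, held the highest value of every member except SNHG1 and SNHG3. The coefficients are therefore a description. Among genes outside the lists used here with a mean of at least 5 FPKM, 2 ribosomal protein genes were most like the mean profile of the members, RPL11 (0.996) and RPL10A (0.996). Next were BNIP1 (0.991), the amino acid transporter gene SLC1A5 (0.990) and GTF3C6 (0.990), a subunit of the RNA polymerase III factor TFIIIC. All of these genes were also highest in replicate 1 of 2 µM CBP30. RPL10A was at 1454 and 1456 FPKM in DMSO, 1728 and 1294 with 2 µM CBP30 and 912 and 903 with 5 µM CBP30. By Spearman's rho the 5 most alike genes were PTRH2, GEMIN7, AATF, DRG2 and LLPH, and 0 genes stood in both sets.

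Several host genes share a promoter region or exons with coding genes, and these neighbours did not all follow them. SNHG1 is transcribed away from SLC3A2, the heavy chain of amino acid transporters at the cell surface, and their starts lie 82 bases apart. SLC3A2 was at 225 and 226 FPKM in DMSO and 167 and 162 FPKM with 5 µM CBP30, a change of −0.45 ± 0.12 (adjusted p = 0.017). Both genes were therefore lower, with SNHG1 at 52.0% and SLC3A2 at 73.1% of DMSO. SNHG3 lies on the same strand inside the span of RCC1, the nucleotide exchange factor of the GTPase Ran, with starts 37 bases apart. RCC1 was at 59.2 and 57.2 FPKM in DMSO and 54.1 and 57.0 FPKM with 5 µM CBP30, a change of −0.07 ± 0.05 (adjusted p = 0.34), beside −1.02 for SNHG3. How reads of shared exons were divided between SNHG3 and RCC1 is not given in the sources used here, and the same holds for SNHG5, which a coding gene model without a row in the table overlaps on the same strand. SNHG12 meets TRNAU1AP, a factor of selenocysteine incorporation, at its end. TRNAU1AP was at 18.7 and 19.6 FPKM in DMSO and 14.9 and 13.3 FPKM with 5 µM CBP30, a change of −0.42 ± 0.07 (adjusted p = 0.0020), whereas SNHG12 was above DMSO. ZBTB37, which is transcribed away from GAS5, was not called (0.01 ± 0.15). FAM69B, which overlaps SNHG7 on the other strand, changed by −0.28 ± 0.10 (adjusted p = 0.056). The genes overlapping SNHG6 and SNHG8, C8orf45 and PRSS12, were under 0.5 FPKM in mean.

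The snoRNAs themselves were poorly covered by these libraries, which select polyadenylated RNA. The table lists 28 of the 32 hosted snoRNAs, 25 of which passed the filter, and 17 of the 28 are at 0 in at least 1 sample. Their FPKM move in steps of few reads because the genes are short. With 5 µM CBP30 0 of the 25 were called lower and 1 higher, SNORA61 of SNHG12. Of all tested genes 25.4% were called lower and 21.2% higher at that dose. SNORA61 was at 70.5 and 55.4 FPKM in DMSO, 83.1 and 104 with 2 µM CBP30, and 179 and 175 with 5 µM CBP30. It changed by 1.49 ± 0.15 with 5 µM CBP30 (adjusted p = 0.00029) and by 0.56 ± 0.15 with 2 µM (adjusted p = 0.029). In GAS5, SNORD47 was at 709 and 693 FPKM in DMSO and at 638 and 676 FPKM with 5 µM CBP30, a change of −0.09 ± 0.27, and SNORD76 was at 329 and 258 and at 247 and 274 FPKM. With 2 µM CBP30 3 snoRNAs were called lower (SNORD44, SNORD76 and SNORD29) and 1 higher (SNORA61). Of all tested genes 16.3% were called lower and 15.9% higher there. SNORD44 is listed at 0 in both samples of that group. SNORD78 of GAS5 is listed at 0 in 8 samples and at 74.1 and 71.5 FPKM with 5 µM I-CBP112. It passed the filter only through that group, so its call there is no evidence of a change. It was the single hosted snoRNA called in that comparison, where 3.84% of all tested genes were called higher. Whether such values come from mature snoRNA or from unspliced host RNA cannot be told apart in this table. A pair of C/D snoRNAs is shown because they mark what the spliced values leave out, the intron-encoded product. The lines give them from the GRCh37 genome, 5′ to 3′, with the box D motif in capitals.
SNORD78 in GAS5 (chr1:173834760-173834824, minus): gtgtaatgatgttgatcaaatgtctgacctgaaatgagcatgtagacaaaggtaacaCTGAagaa
SNORD99 in SNHG12 (chr1:28905261-28905334, minus): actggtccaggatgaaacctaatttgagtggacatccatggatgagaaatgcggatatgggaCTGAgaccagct

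Other genes listed as noncoding snoRNA hosts were mostly lower at the higher CBP30 dose. Of 15 further noncoding genes listed as hosts, 13 were in the table and 12 were tested. RefSeq places a snoRNA inside 13 of the 15, but none inside SNHG10 and SNHG20, both of which were tested. With 5 µM CBP30, 9 of the 12 were called lower and 0 higher, with a median of −0.69. The 9 include SNHG10 (−0.69) and SNHG20 (listed as LINC00338, −0.74). Beside this list and those below, 25.4% of all tested genes were called lower and 21.2% higher at that dose. EPB41L4A-AS1 was at 44.004 and 42.5 FPKM in DMSO and 17.2 and 16.4 FPKM after treatment, a change of −1.32 ± 0.14 (adjusted p = 0.00031). SNHG4 changed by −1.21, SNHG15 by −0.98 and SNHG17, listed under its older name LOC388796, by −0.81. SNHG9, SNHG11 and MEG8 were not called. With 2 µM CBP30 1 was called lower (SNHG4) and 1 higher (SNHG9), where 16.3% of all tested genes were called lower and 15.9% higher. The median of the 12 was −0.12 at that dose, and −0.25 without replicate 1 of that group. With I-CBP112 0 were called at either dose by limma, where 0.735% of all tested genes were called lower at 2 µM and 3.28% at 5 µM. With only the groups compared in the fit 3 were called lower with 5 µM I-CBP112 (6.69% of all tested genes).

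Coding genes that host snoRNAs were mostly lower with 5 µM CBP30 too. Of 24 ribosomal protein genes that host snoRNAs, 16 were called lower and 0 higher, with a median of −0.42, or −0.17 with 15 lower after quantile normalization. RPL12 was at 1499 and 1477 FPKM in DMSO and 943 and 919 FPKM after treatment (−0.68), and RPL13A, RPS2 and RPL4 changed by −0.64, −0.58 and −0.57. At 2 µM 0 of them were called, with a median of 0.19, and 0.01 without replicate 1 of that group. Of 24 other coding hosts, 16 were called lower and 1 higher with 5 µM CBP30, with a median of −0.35, or 12 lower and 4 higher with a median of −0.21 after quantile normalization. PPAN, a factor of ribosome assembly, changed by −0.99, the mitochondrial chaperone gene HSPA9 by −0.88, the pseudouridine synthase gene DKC1 by −0.78 and the elongation factor gene EEF2 by −0.77. With 2 µM CBP30 9 were called lower and 1 higher. With 5 µM I-CBP112 1 was called lower, or 3 after quantile normalization (3.82% of all tested genes). In that setting 24.9% of all tested genes were called lower and 24.6% higher with 5 µM CBP30.

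The mRNAs of proteins that bind and assemble snoRNAs were mostly lower as well. Of 6 core protein genes, 5 were called lower with 5 µM CBP30 and 0 higher, with a median of −0.51. GAR1, which encodes a core protein of H/ACA particles, was at 77.8 and 71.4 FPKM in DMSO and 36.0 and 36.3 FPKM after treatment (−1.02 ± 0.10, adjusted p = 0.00020). NHP2 of the same particles changed by −0.53, NHP2L1, which binds C/D snoRNAs, by −0.51 and the methyltransferase gene FBL by −0.51. Of 10 genes of assembly factors 7 were called lower and 1 higher. NOLC1, a chaperone of snoRNA particles in the nucleolus, changed by −0.90, and the helicase genes RUVBL2 and RUVBL1 by −0.76 and −0.66, while RPAP3 rose by 0.43. With 5 µM I-CBP112 0 of the core genes and 1 of the assembly genes were called, the latter lower. With only the groups compared in the fit, 1 core gene and 3 assembly genes were called lower with 5 µM I-CBP112 (6.69% of all tested genes). At the lower CBP30 dose 1 core gene and 3 assembly genes were called lower and 0 higher.

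Genes that act on host RNAs after transcription showed no common direction. Of 10 nonsense-mediated decay factors 2 were called lower (UPF3A by −0.32 and SMG5 by −0.27) and 2 higher (SMG6 by 0.23 and SMG8 by 0.22) with 5 µM CBP30, with a median of 0.02. Of 9 regulators of TOP mRNAs 2 were called lower and 2 higher, with a median of −0.09. With only the groups compared in the fit 4 were called lower and 2 higher. In that setting 32.6% of all tested genes were called lower and 28.4% higher. At 2 µM CBP30 1 decay factor and 3 TOP regulators were called lower and 0 higher, with medians of −0.07 and −0.21. Without replicate 1 of that group the medians were −0.10 and −0.11. EIF4EBP1, a repressor of translation initiation, was at 202 and 192 FPKM in DMSO and 92.1 and 90.6 FPKM after treatment (−1.10), whereas EIF4EBP2 changed by 0.52. MYC, a transcription factor at the centre of the study, was at 338 and 320 FPKM in DMSO, 148 and 146 with 2 µM CBP30 and 81.7 and 80.9 with 5 µM CBP30. Its levels were 241 and 231 FPKM with 2 µM I-CBP112 and 210 and 201 with 5 µM I-CBP112.

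Markers of the cell line and of other cell types moved beside the host RNAs. Of the 8 K562 markers 7 were called lower and 1, TAL1, higher with 5 µM CBP30, and their summed level was 1316 and 1309 FPKM in DMSO, 733 and 586 with 2 µM CBP30 and 543 and 562.2 with 5 µM CBP30. The sum was 859 and 935 FPKM with 2 µM I-CBP112 and 900.1 and 843 with 5 µM I-CBP112. The sum of the 9 markers of other cell types was 62.4 and 61.3 FPKM in DMSO and 38.01 and 39.6 with 5 µM CBP30. EPCAM made up most of it and changed by −0.85, while the other 8 together were at 2.74 and 2.70 FPKM in DMSO and at 6.20 and 6.60 with 5 µM CBP30. The part of these markers in the changes of the host RNAs was not tested. In bulk samples, fewer cells of a kind and less RNA per cell cannot be told apart.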

How the data were processed

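Polyadenylated RNA of 10 K562 samples was sequenced by the authors with a stranded kit as single reads of 50 bases, and each sample was assigned to its group by its label. The authors deposited 1 table of FPKM values on the hg19 (GRCh37) genome, 1 column per sample. The submitters' processing notes name FastQC, TopHat2 2.0.10, Bowtie 1.0.0, SAMtools 0.1.19, Cufflinks 2.2.1 and Cuffnorm, and the study names the Nextpresso pipeline. The gene annotation is not given in the sources used here. FPKM scaling is relative, so a shift in abundant genes moves all others.

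The linear models of limma 3.58.1 (R 4.3.3) were fitted to log2(FPKM + 1), with all groups in 1 fit and a variance trend in eBayes. The fit had 5 residual degrees of freedom and a prior worth 2.15 more. A gene was tested if its average over the samples reached 0.5 FPKM. Each treatment was compared with DMSO, the doses and inhibitors with each other, and the dose steps with each other, 9 comparisons in all, each adjusted over all tested genes. The fit was tested on simulated data. Fold changes on this scale understate the change of low genes. Annotation and plots used Python 3.11.15, pandas 2.3.3 and matplotlib 3.10.9.

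The members and lists were chosen with earlier results of these data known. Named genes were the members, their neighbours and hosted snoRNAs, MYC, the 5 genes most like the member mean, and of each list at most the 4 called genes of at least 5 FPKM with the largest change at 5 µM CBP30. A neighbour is not reported here. Genes named beyond this rule (EEF1A1, markers, further SNHG genes) were chosen after their values were seen. Older names in the table were accepted only as RefSeq lists them. As alternatives, the results were computed without the filter, with one at 5 FPKM, with 0.1 as the pseudocount, and with median centring, quantile normalization, no variance trend, only the groups compared, a replicate block, removal of the trend with transcript length with and without the block, tests without small RNA genes, and leaving out each sample. The length correction with median transcript lengths was added after the data were seen.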

Additional observations from a re-analysis of the deposited data

Results flagged for a closer look

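The step from 2 to 5 µM differed between CBP30 and I-CBP112 by the test of the difference itself for 3 host genes. On the log2(FPKM + 1) scale the CBP30 step minus the I-CBP112 step was −0.70 for GAS5 (adjusted p = 0.036), −0.65 for SNHG1 (adjusted p = 0.020) and −0.70 for SNHG3 (adjusted p = 0.015), by limma with Benjamini-Hochberg adjustment over all tested genes. GAS5 stepped by −0.71 with CBP30 and by −0.00 with I-CBP112, SNHG1 by −0.73 and −0.08, and SNHG3 by −0.78 and −0.08. Each step rests on 2 samples per dose. The 3 calls were lost in most fits that left out 1 sample, where few of all tested genes were called either. Over the alternative settings the difference ran from −0.84 to −0.35 for GAS5 and from −0.71 to −0.39 for SNHG1. For SNHG3 it ran from −0.76 to −0.52.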

How the results depend on the processing

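Of the values of single host genes over all comparisons and alternatives, 1403 kept their direction and side of the threshold, 74 lost a call, 47 gained one and 51 uncalled values changed sign. The single reversal was SNHG7 with 2 µM CBP30 against DMSO, which became 0.20 without replicate 2 of that group (and −0.22 without replicate 1). With 5 µM CBP30 against DMSO the median change of the members ran from −0.84 to −0.79 when 1 sample was left out. With only the groups compared 1 member was called higher (28.4% of all tested genes), and 1 with the length trend removed (26.7%). With 2 µM CBP30 against DMSO the members called lower were 3 with quantile normalization (17.1% of all tested genes) and 1 without a filter (10.2%). They were 0 with median centring (14.7%) and 0 with only the groups compared (1.28%). When 1 sample was left out, their median change ran from −0.24 to 0.23. With 5 µM I-CBP112 1 member was called lower with quantile normalization (3.82% of all tested genes) and 1 with the length trend removed (6.51%). With only the groups compared 2 members were called lower (6.69%). When 1 sample was left out, the median change ran from −0.11 to −0.0002. Between the CBP30 doses 0 were called with only the groups compared (0.0313% of all tested genes lower), which leaves 2 samples a group and few degrees of freedom. When 1 sample was left out, 4 to 8 were called lower. The 8 came without replicate 2 of 2 µM CBP30, the fit with the largest share of all tested genes called lower. Over these fits the median step of the members ran from −0.84 to −0.56. Between inhibitors at 2 µM 3 were called lower with quantile normalization (9.60% of all tested genes). With the length trend removed 1 was called lower (12.1%), and 1 with the median transcript length (9.81%). When 1 sample was left out, the median difference ran from −0.15 to 0.28. At 5 µM this median ran from −0.76 to −0.70. In the comparison of dose steps 5 were called lower without small RNA genes (5.87% of all tested genes, beside 3.32% in the main fit). When 1 sample was left out, 0 to 7 were called lower. The 7 came without replicate 2 of 2 µM CBP30, the fit with the largest share of all tested genes called lower. Over these fits the median difference of the members ran from −0.80 to −0.55. The cause was not tested.

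Deviations of same-numbered samples from their group means correlated at −0.07 to 0.09 over 10 pairs of groups, so no shared shift by number was seen. With 2 samples per group this cannot tell whether same-numbered samples were handled together. With the replicate block 1 member was called lower with 2 µM CBP30 against DMSO in place of 2 (15.2% of all tested genes). With the length trend removed and the block, 1 was called lower with 5 µM I-CBP112 against DMSO (5.61%). In that setting 1 was also called lower between inhibitors at 2 µM (11.1%). Read depth is not in the values, so no floor of detection was derived.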

Other observations

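RPL21, a ribosomal protein gene and snoRNA host with processed copies elsewhere in the genome, was chosen after its values were seen. It was at 96.9 and 18.1 FPKM in DMSO, 98.3 and 80.3 in the 2 µM CBP30 samples and 63.6 and 55.3 in those given 5 µM. I-CBP112 samples had 32.8 and 151 FPKM at 2 µM and 100.01 and 30.5 at 5 µM. Replicates of 3 groups differed more than the groups did, and its change of 0.48 ± 0.96 with 5 µM CBP30 carried the largest error among the ribosomal hosts.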
